A study of Mus musculus with 9 samples.

Results

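The genes described here are 50 mouse genes of the BMP and TGF-beta pathways, taken by gene symbol and grouped by role into ligands, receptors, Smads, Smurf ubiquitin ligases, secreted antagonists, matrix carriers and target genes. A probe carried the symbol of 46 of them, with 72 of the 25697 probes on the array. Smad4, Fstl3, Inhbb and Smurf2 were not analysed here. After a filter on dim probes, 39 of the 50 genes were tested among 9492 genes in all.

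The cells were NeMCO cells, primary osteoblasts from the calvaria of newborn mice, and every group carried a lentivirus that expresses RUNX2 when doxycycline (dox) is given. They were kept in phenol red free MEM with 20% charcoal stripped serum, and the treatments lasted 48 h. The dox+E2 group (n = 2) received 500 ng/ml dox with 10 nM E2 (oestradiol), the E2 group (n = 3) received 10 nM E2 without dox, the dox group (n = 2) received 500 ng/ml dox without E2, and the vehicle group (n = 2) received neither. RUNX2 is the transcription factor that sets the osteoblast fate, and the study's title concerns how oestrogens act on what RUNX2 does in osteoblasts. No group received dox without the virus, so an action of dox itself and one of RUNX2 cannot be told apart. By the number in the array names, taken here as the slide, the dox+E2 and E2 arrays shared 1 slide and the dox and vehicle arrays another. Every dox comparison therefore lies within a slide, whereas E2 and slide cannot be told apart. The labels do not say whether replicates came from separate cultures, so p-values measure only the spread between these arrays, which may be technical.

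Ligands of the TGF-beta family are secreted as dimers and bind pairs of type I and type II receptors, which are serine/threonine kinases. TGF-beta and activin receptors pass the signal to Smad2 and Smad3, BMP receptors to Smad1 and Smad5, and either kind of receptor Smad enters the nucleus with Smad4. Smad6 and Smad7 inhibit the pathway from inside the cell, while noggin, chordin, gremlin and follistatin bind ligands outside it. In bone, BMPs drive osteoblast differentiation, TGF-beta is stored in the matrix in a latent form, and RUNX2 is known to act together with receptor Smads on DNA.

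Between 11554 and 12206 probes lay above background per array (detection p under 0.05), and the median signal was 157.95 to 172.1 on the slide of the E2 groups and 131.8 to 149.9 on the other. The number of arrays limits the precision. Of 9 osteoblast markers with a probe 6 were above background on all 9 arrays, namely Col1a1, Col1a2, Sp7, Alpl, Spp1 and Sparc. Runx2 itself and Ibsp were below background on all 9, so these arrays give no check of the induction of Runx2 by dox. Of 8 endothelial markers 6 were below background on every array, among them Pecam1 and Cdh5, and of 10 macrophage and osteoclast markers 5 were, among them Ptprc and Csf1r. Ctsk, from the macrophage and osteoclast list, was above background on all 9 arrays. Of 7 chondrocyte markers 5 were above background on all arrays, namely Col2a1, Acan, Comp, Sox9 and Hapln1. Of 7 adipocyte markers 5 were below it on all, whereas Pparg and Lpl were above it on all 9. Dox replicate 2 stood apart from the other dox array in the immediate early genes, with Fos at 7.52 against 10.41 in dox replicate 1 (log2 intensity).

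Most of the pathway was detectable. Of the 39 tested genes 34 were above background on all 9 arrays. The exceptions were Bmp7 (8 arrays), Ltbp2 (6), Grem1 (5), Bmpr2 (4) and Id4 (2). Another 6 genes were below background on every array, namely the ligands Bmp2 and Bmp6, the activin receptors Acvr1b and Acvr2a, the decoy receptor Bambi and the inhibitory Smad7. Acvrl1, a type I receptor best known from endothelium, passed on 1 array and was not tested.

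By role, 7 of 9 ligands with a probe were tested, 9 of 13 receptors and coreceptors, 5 of 6 Smads, the single Smurf ligase, and all 5 antagonists, all 5 matrix genes and all 7 target genes. The number of the 46 genes above background was 36 and 39 in dox+E2, 36 to 38 in E2, 39 and 36 in dox and 36 on both vehicle arrays. A dim probe can reflect its own sequence as well as a low transcript, and no probe's level was set against another's. A gene of the whole culture was measured, so fewer cells of a type and less RNA per cell cannot be told apart.

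**Figure D1:**
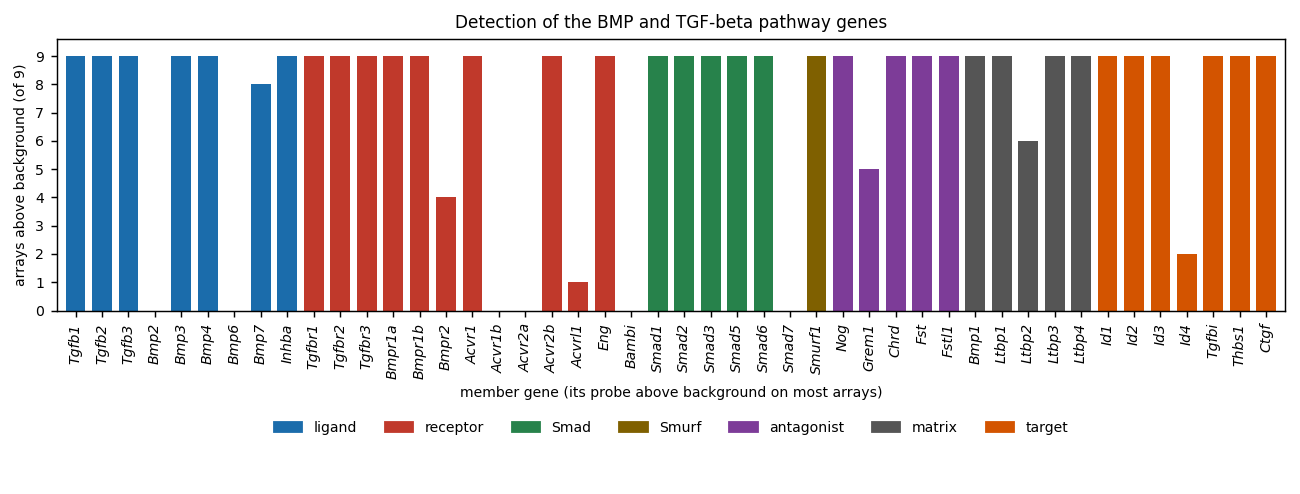
Number of arrays, of 9, on which each of the 46 pathway genes with a probe was above background (detection p under 0.05), grouped by role. Most bars reach 9 arrays, and the 6 genes at 0 are Bmp2, Bmp6, Acvr1b, Acvr2a, Bambi and Smad7.

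Dox changed no tested pathway gene past the threshold, an adjusted p under 0.05 in limma. With E2 present, dox+E2 against E2, 0 of 39 genes passed, where 0.0737% of all genes did. Without E2, dox against vehicle, 0 of 39 passed, where 0.0316% of all genes did. Over all arrays, in a fit with slide as a term, 0 of 39 passed, where 0.116% of all genes did. At an unadjusted p under 0.05, 1, 3 and 1 of the 39 genes were counted in these comparisons in that order, beside 6.23%, 6.76% and 5.85% of all genes.

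The intervals bound how large a change could have been missed. In the comparison over all arrays the 95% interval of 37 of 39 genes lay within 1.5-fold in both directions, as did that of 91.1% of all genes, and Bmpr2 and Id4, dim on most arrays, were the exceptions. The median log2 change over the 39 genes was -0.02 and over all genes 0.00. Within the separate slides the bound held for fewer genes, 30 of 39 with E2 (75% of all genes) and 29 of 39 without E2 (69.3%). The values of dox and no-dox arrays were fully apart for 13 of 39 genes with E2 (20.8% of all genes) and for 16 of 39 without E2 (38.1%).

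**Figure D2:**
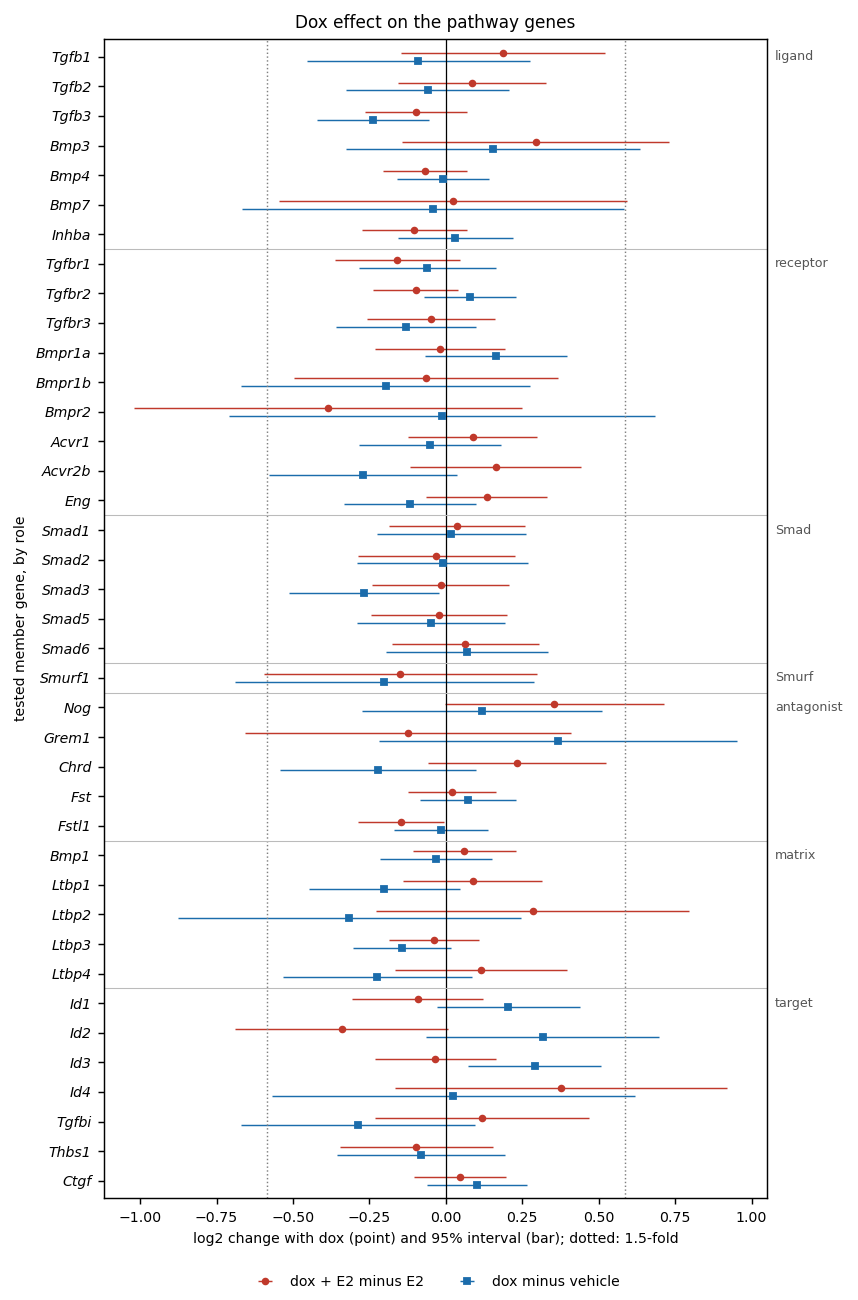
Log2 change with dox for the 39 tested genes by role, as dox+E2 minus E2 and dox minus vehicle. Points are limma estimates, bars are 95% intervals and dotted lines mark 1.5-fold. Most intervals cross 0, and no gene passed the adjusted threshold in either comparison.

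Among the ligands, Tgfb3 (chromosome 12), 1 of the 3 TGF-betas, had the smallest unadjusted p over all arrays. Its log2 intensity was 11.11 and 11.02 in dox+E2, against 11.10, 11.24 and 11.14 in E2. It was 10.89 and 10.99 in dox, against 11.25 and 11.10 in vehicle. The dox arrays lay below both vehicle arrays, while dox+E2 and E2 overlapped. The estimates were -0.10 ± 0.08 (SE) with E2, -0.24 ± 0.09 without E2 and -0.16 ± 0.06 over all arrays, the last with a 95% interval of -0.29 to -0.03 and an adjusted p of 0.748 in limma.

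Bmp4, a BMP active in skeletal development, was at 13.21 and 13.20 in dox+E2, 13.35, 13.22 and 13.25 in E2, 13.17 and 13.32 in dox, and 13.24 and 13.27 in vehicle. Its estimate over all arrays was -0.04 ± 0.05 (adjusted p = 0.94, limma). Bmp3, an inhibitory member of the BMP group, was dim, at 6.28 and 6.17 in dox+E2 against 5.95, 6.01 and 5.84 in E2, and at 6.24 and 6.27 in dox against 6.11 and 6.09 in vehicle. The dox arrays were the higher ones on both slides, but the change over all arrays was 0.23 ± 0.15 (adjusted p = 0.896, limma). Tgfb1, Tgfb2, Bmp7 and Inhba had estimates over all arrays between -0.04 and 0.06.

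Of the 9 receptors and coreceptors tested, none passed and 3 had positive estimates over all arrays, beside 4600 of all 9492 genes. Acvr2b, a type II receptor for activins, was at 8.43 and 8.21 in dox+E2 against 8.23, 8.02 and 8.22 in E2, and at 7.86 and 7.88 in dox against 8.04 and 8.25 in vehicle. Dox arrays lay below vehicle arrays, and dox+E2 overlapped with E2. The estimates were 0.16 with E2 and -0.27 ± 0.15 without it. Bmpr1a, a type I receptor of BMPs, had an estimate of 0.06 over all arrays.

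Tgfbr1 and Tgfbr2 are the type I and type II receptors of TGF-beta. Tgfbr1 was at 9.59 and 9.74 in dox+E2 against 9.75, 9.95 and 9.76 in E2, and at 9.69 and 9.77 in dox against 9.85 and 9.73 in vehicle. The dox+E2 arrays lay just below E2, and the estimate over all arrays was -0.11 ± 0.07 (adjusted p = 0.896, limma). Tgfbr2 was at 13.15 and 13.27 in dox+E2 against 13.23, 13.39 and 13.30 in E2, and at 13.47 on both dox arrays against 13.43 and 13.36 in vehicle. Dox+E2 overlapped with E2, dox lay above vehicle, and the estimate over all arrays was -0.02 ± 0.05. Tgfbr2 had a second, dimmer probe that did not follow the first. The dimmer probe gave 0.51 ± 0.19 for dox without E2, against 0.08 for the brighter one, and neither passed the adjusted threshold. In the dox comparisons the interval of every other kept probe of a pathway gene overlapped with that of the gene's brightest probe. For E2 and slide without dox the intervals of Tgfbr2 lay apart, at 0.62 ± 0.17 for the dimmer probe and -0.09 ± 0.07 for the brighter one. Tested probe by probe, 0 of 53 pathway probes passed in each dox comparison.

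Among the Smads, Smad3, the main carrier of TGF-beta signals to the nucleus, was at 10.22 on both dox+E2 arrays, against 10.04, 10.32 and 10.35 in E2. It was at 10.11 and 10.46 in dox, against 10.67 and 10.44 in vehicle. Groups overlapped on both slides. The estimate without E2 was -0.27 ± 0.12 (adjusted p = 0.711, limma), and it was -0.09 without dox replicate 1 and -0.44 without dox replicate 2. Smad1, Smad2 and Smad5 had estimates over all arrays between -0.03 and 0.03, and Smad6 had 0.07 ± 0.09. By their brightest probes, all 5 Smads had intervals within 1.5-fold in each dox comparison. The dimmest of the 3 kept probes of Smad1 gave 0.47 ± 0.19 over all arrays (adjusted p = 0.859 in limma, tested probe by probe). Its interval, 0.07 to 0.86, reached past 1.5-fold. That probe gave 0.48 ± 0.26 with E2 and 0.45 ± 0.29 without it, also with intervals past 1.5-fold. The remaining Smad1 probe gave 0.10 ± 0.08 over all arrays. The dimmer Smad5 probe had intervals past 1.5-fold with E2 and without it.

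The secreted antagonists gave the single gene below an unadjusted 0.05 with E2. Fstl1 (chromosome 16), a secreted follistatin-like glycoprotein, was at 12.98 and 13.02 in dox+E2, against 13.03, 13.20 and 13.22 in E2. It was at 13.12 and 13.14 in dox, against 13.13 and 13.16 in vehicle. The dox+E2 arrays lay below all E2 arrays, and dox and vehicle overlapped. The change with E2 was -0.15 ± 0.07 (adjusted p = 0.772, limma), and without E2 it was -0.01.

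Nog, which codes for noggin, was at 7.73 and 7.84 in dox+E2, against 7.25, 7.39 and 7.65 in E2. It was at 7.30 and 7.75 in dox, against 7.60 and 7.22 in vehicle. The dox+E2 arrays were above all E2 arrays, whereas the dox and vehicle arrays were spread over the same range. The change with E2 was 0.36 ± 0.17 (adjusted p = 0.817, limma) and over all arrays 0.25 ± 0.13 (adjusted p = 0.877). Fst, which codes for follistatin, differed over all arrays by 0.04.

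The 5 matrix genes hold the carriers of latent TGF-beta (Ltbp1, Ltbp2, Ltbp3 and Ltbp4) and Bmp1, a protease that processes procollagens and cleaves chordin. Their estimates were positive for 4 of 5 with E2, beside 4844 of all 9492 genes, and none passed. Without E2 they were positive for 0 of 5, beside 4508 of 9492, and none passed. In both comparisons 2 of the 4 kept probes of Bmp1 had the opposite sign to its brightest probe. With E2 the dimmer probe of Ltbp3 and the 2 dimmer probes of Ltbp4 also had the opposite sign to the brightest, so these signs depend on the probe. Ltbp3 was at 11.79 and 11.71 in dox+E2 against 11.78, 11.80 and 11.80 in E2, and at 11.84 and 11.77 in dox against 12.00 and 11.91 in vehicle. Both dox arrays were below vehicle, by -0.14 on the log2 scale.

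The Id genes are the classical early targets of BMP-activated Smads and code for proteins that block basic helix-loop-helix factors. Id3 (chromosome 4) was at 10.64 and 10.34 in dox+E2, against 10.65, 10.42 and 10.51 in E2. It was at 10.79 and 10.64 in dox, against 10.41 and 10.44 in vehicle. Both dox arrays were above both vehicle arrays, and dox+E2 overlapped with E2. The change without E2 was 0.29 ± 0.11, with a 95% interval of 0.07 to 0.51 and an adjusted p of 0.633 in limma, and with E2 it was -0.03 ± 0.10.

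Id2 (chromosome 12) was at 7.30 and 7.72 in dox+E2, against 8.03, 7.73 and 7.78 in E2. It was at 8.04 and 7.86 in dox, against 7.88 and 7.39 in vehicle. The dox+E2 arrays were below all E2 arrays, and the dox and vehicle arrays overlapped. The estimates were -0.34 ± 0.17 with E2 (adjusted p = 0.822, limma) and 0.32 ± 0.19 without it (adjusted p = 0.776).

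Id1 (chromosome 2) was at 9.75 and 9.90 in dox+E2, against 9.93, 9.78 and 10.04 in E2, and at 10.24 and 10.39 in dox, against 10.25 and 9.97 in vehicle. Groups overlapped on both slides, and the estimates were -0.09 ± 0.10 with E2 and 0.20 ± 0.11 without it. Ctgf (now named Ccn2), Thbs1 and Tgfbi, genes that TGF-beta is known to induce, had estimates over all arrays of 0.07, -0.09 and -0.07.

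**Figure D3:**
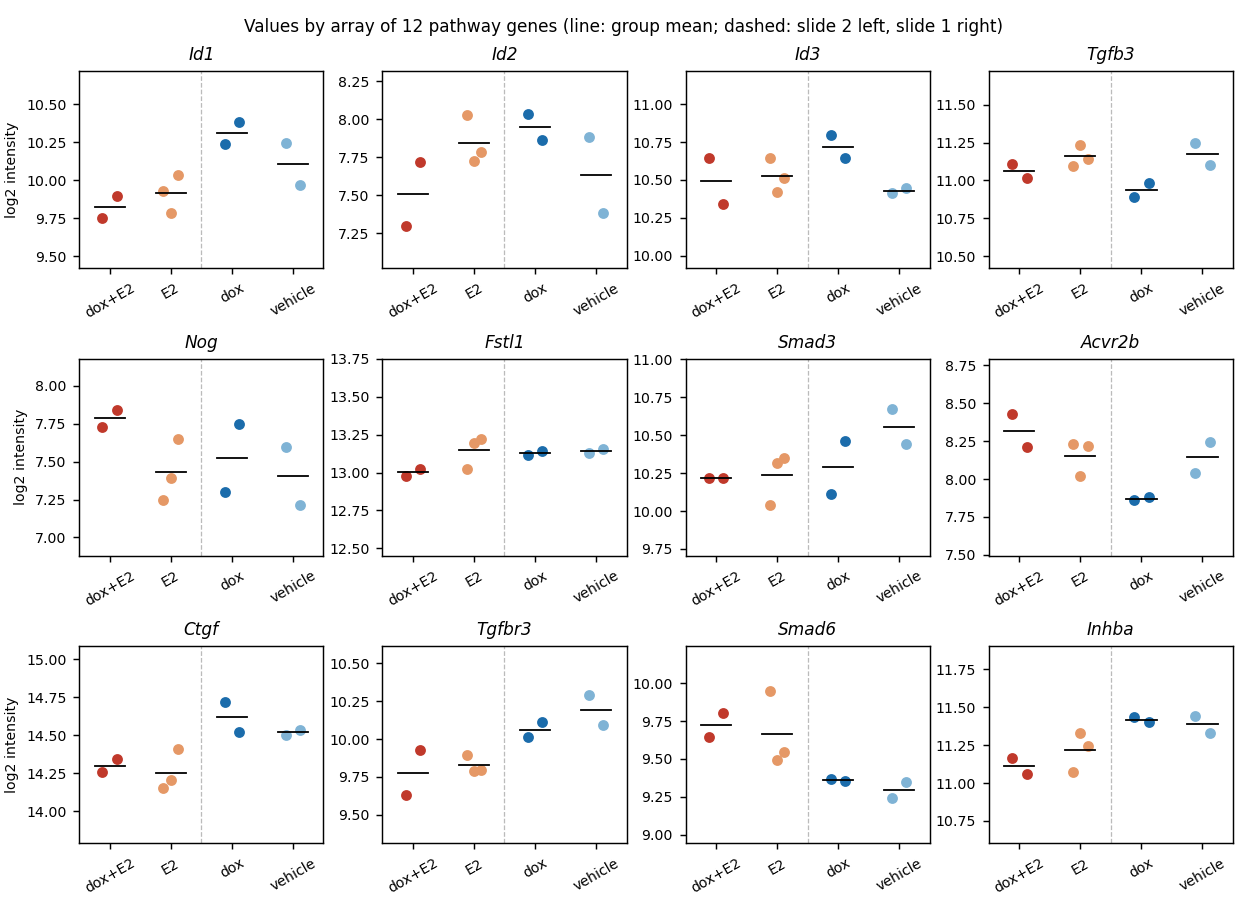
Log2 intensity of 12 pathway genes on each of the 9 arrays, in the groups dox+E2, E2, dox and vehicle. Each point is an array, the line is the group mean, every panel spans the same height, and the dashed line parts the slides. Ctgf, Tgfbr3 and Inhba are lower, and Smad6 higher, on every array left of the line than on any array right of it.

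Promoter sequence is shown for Id2 and Id3, the targets with the smallest p in the difference between the dox effects reported next, and for Fstl1, the gene with the smallest p for dox with E2. Each window holds the 250 bases before the start of the gene, 5′ to 3′ on the strand of the gene, from RefSeq on GRCm38.p6. Capitals mark the letters TGTGGT or TGCGGT (the core bound by RUNX proteins), GGCGCC (a GC-rich motif bound by BMP-activated Smads) and CAGAC (the Smad box), searched on both strands with no overlap among the matches shown. Id2 lies at chr12:25096093-25096342 on the minus strand, Id3 at chr4:136143572-136143821 and Fstl1 at chr16:37776805-37777054, both on the plus strand.
Id2: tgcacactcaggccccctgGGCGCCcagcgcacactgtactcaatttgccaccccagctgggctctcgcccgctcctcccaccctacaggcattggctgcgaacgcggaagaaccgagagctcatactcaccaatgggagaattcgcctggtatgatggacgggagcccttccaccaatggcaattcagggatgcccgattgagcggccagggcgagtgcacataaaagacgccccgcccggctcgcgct
Id3: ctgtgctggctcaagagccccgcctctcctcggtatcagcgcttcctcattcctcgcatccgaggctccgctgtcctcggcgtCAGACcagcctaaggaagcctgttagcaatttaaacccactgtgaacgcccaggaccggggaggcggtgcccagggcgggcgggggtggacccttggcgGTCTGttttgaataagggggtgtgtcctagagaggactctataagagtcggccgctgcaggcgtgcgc
Fstl1: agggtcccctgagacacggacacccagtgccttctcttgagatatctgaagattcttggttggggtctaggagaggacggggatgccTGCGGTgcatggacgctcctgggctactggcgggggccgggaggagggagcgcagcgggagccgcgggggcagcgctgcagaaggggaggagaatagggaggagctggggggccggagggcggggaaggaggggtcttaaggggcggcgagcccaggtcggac
The Fstl1 window held TGCGGT from 163 to 158 bases before the start. The Id2 window held GGCGCC from 231 to 226 bases before it. The Id3 window held CAGAC from 167 to 163 and its complement GTCTG from 68 to 64 bases before it. The RUNX letters were found in the windows of 4 of 34 pathway genes with an entry and in 18.6% of 32851 windows of that length, GGCGCC in 11 of 34 and in 9.59%, and CAGAC in 18 of 34 and in 42.2%. These matches describe letters and are not measured sites.

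Whether the dox effect differed with E2 was tested as the difference between the slides, dox+E2 minus E2 less dox minus vehicle. Of 39 genes 0 passed the adjusted threshold, and 0% of all genes did. At an unadjusted p under 0.05 there were 4 of 39 genes and 6.87% of all genes, namely Id2, Id3, Chrd and Acvr2b. The interval of 21 of 39 genes lay within 1.5-fold, beside 51.9% of all genes, so differences of that size could not be detected for many of them.

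The difference for Id2 was -0.66 ± 0.25, with a 95% interval of -1.17 to -0.14 (adjusted p = 0.678, limma), and it was -0.41 without vehicle replicate 2 and -0.90 without vehicle replicate 1. That for Id3 was -0.32 ± 0.14 (adjusted p = 0.691). Id1 gave -0.30 ± 0.15 (adjusted p = 0.752). These 3 targets had negative estimates, whereas the dim Id4 had 0.35 ± 0.39.

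Differences above 0 were estimated for Chrd and Acvr2b. Chrd, which codes for the BMP antagonist chordin, was at 8.20 and 8.00 in dox+E2 against 7.92, 7.70 and 7.97 in E2, and at 7.87 and 8.06 in dox against 8.26 and 8.11 in vehicle. The dox+E2 arrays were above E2 and the dox arrays below vehicle, and the difference was 0.45 ± 0.21 (adjusted p = 0.696, limma). Acvr2b gave 0.43 ± 0.20 (adjusted p = 0.696). All 5 matrix genes had positive differences, beside 5013 of all 9492 genes, and none passed. Of the 4 kept probes of Bmp1, 2 had a difference of the opposite sign to its brightest probe.

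Further genes of the pathway that are not among the 50 were read from 6 lists, and 71 of them were tested. The lists were chosen with earlier results of these data known, so the share that passed is no test of the pathway. With E2, 2 of 71 passed for dox, beside 0.0737% of all genes: Sp7, the osteoblast transcription factor osterix, rose by 0.72 ± 0.11 (adjusted p = 0.00393, limma) and Alpl, alkaline phosphatase, rose by 0.99 ± 0.17 (adjusted p = 0.00889). Both are counted here as BMP target genes, of which 7 were tested, and both are also among the osteoblast markers above. Whether BMP signals took part in their rise was not tested. Without E2, 0 of the 71 passed, and Sp7 had 0.64 ± 0.12 (adjusted p = 0.0569). Over all arrays the same genes passed, beside 0.116% of all genes, Sp7 at 0.68 ± 0.08 and Alpl at 0.85 ± 0.13. In the other lists 0 of 7 ligands, 0 of 4 receptors, 0 of 20 antagonists and modulators, 0 of 19 Smad partners and 0 of 14 TGF-beta target genes passed in any dox comparison.

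Over all arrays the smallest p in each of these other lists belonged to Inha, the alpha subunit of inhibin (-0.38 ± 0.20), Neo1, neogenin (-0.11 ± 0.05), Htra1, a secreted protease (0.16 ± 0.06), Dab2, an endocytic adaptor (-0.12 ± 0.06), and Col1a1, the main collagen chain of bone (-0.13 ± 0.04). With E2 they were Inha (-0.67 ± 0.26), the receptor Amhr2 (0.49 ± 0.25), the integrin chain Itgb5 (0.21 ± 0.07), Dab2 (-0.17 ± 0.08) and Ccn1 (0.26 ± 0.10). Without E2 they were Bmp5 (0.75 ± 0.27), Neo1 (-0.17 ± 0.08), the procollagen protease enhancer Pcolce (-0.24 ± 0.07), the ubiquitin ligase Rnf111 (0.43 ± 0.21) and Col1a1 (-0.15 ± 0.07). None of these passed the adjusted threshold. For the difference none of the 71 passed, and Bmp5 had -0.97 ± 0.37 and Ccn1 0.45 ± 0.15.

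For Sp7 the log2 intensity was 9.45 and 9.50 in dox+E2, against 8.78, 8.61 and 8.88 in E2, and 9.16 and 9.14 in dox, against 8.55 and 8.48 in vehicle. All dox arrays lay above all arrays without dox. The Id genes, also BMP targets, showed no such separation.

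The E2 groups differed from the others also by slide, so the next values describe both together. Over all arrays, in a comparison added after the data had been seen, 5 of 39 genes passed, where 2.94% of all genes did. Of these, 4 fell and 1 rose. The 95% interval of 35 of 39 genes lay within 1.5-fold, as did that of 86.5% of all genes. The fit set the 5 arrays with E2 against the other 4, with dox as a term.

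Ctgf (chromosome 10), a matricellular protein and TGF-beta target, was at 14.25 and 14.34 in dox+E2 against 14.72 and 14.52 in dox, and at 14.15, 14.20 and 14.41 in E2 against 14.50 and 14.53 in vehicle. All arrays of the E2 groups were below all others. It fell by 0.29 on the log2 scale (SE 0.05, adjusted p = 0.00251, limma), a fold of 0.818.

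Tgfbr3 (chromosome 5), the coreceptor betaglycan, was at 9.63 and 9.93 in dox+E2 against 10.01 and 10.11 in dox, and at 9.89, 9.79 and 9.80 in E2 against 10.29 and 10.09 in vehicle. No array of the E2 groups reached the others, and it fell by 0.33 (SE 0.08, adjusted p = 0.0151, limma). Its dimmer probe gave 0.24 ± 0.19, and the mean of both probes -0.05, so the call rests on 1 probe. In this comparison the 95% intervals of a dimmer and the brightest probe lay apart for Tgfbr3, Tgfbr2 (0.31 ± 0.14 against -0.17 ± 0.05) and Bmp1 (-0.16 ± 0.07 against 0.13 ± 0.06).

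Smad6 (chromosome 9), the inhibitory Smad of the BMP branch, was at 9.65 and 9.80 in dox+E2 against 9.37 and 9.36 in dox, and at 9.95, 9.49 and 9.55 in E2 against 9.24 and 9.35 in vehicle. It was higher on every array of the E2 groups than on any other, and rose by 0.37 ± 0.09 (SE, adjusted p = 0.0170, limma).

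Inhba (chromosome 13), the activin A subunit, was at 11.16 and 11.06 in dox+E2 against 11.44 and 11.40 in dox, and at 11.07, 11.33 and 11.24 in E2 against 11.44 and 11.33 in vehicle. The arrays of the E2 groups were the lower ones, E2 replicate 2 by less than the rounding shows. The gene fell by 0.23 (SE 0.06, adjusted p = 0.0392, limma).

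Id1, with the values given above, was lower in dox+E2 than in dox on every array, and E2 overlapped with vehicle. It fell by 0.33 over all arrays (SE 0.08, adjusted p = 0.0243, limma), with -0.49 ± 0.11 for dox+E2 minus dox and -0.19 ± 0.10 for E2 minus vehicle. Arrays of both E2 groups lay apart from all others for 4 of 39 genes, beside 6.43% of all genes. Tgfbr2 at -0.17 ± 0.05 (adjusted p = 0.0771) and Thbs1 at 0.25 ± 0.09 (adjusted p = 0.104) did not pass.

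Ctgf alone of the 5 kept its call when each array was left out in turn. The count was 1 gene (Ctgf) without vehicle replicate 1, 3 (Ctgf, Id1 and Tgfbr3) without vehicle replicate 2, 2 (Ctgf and Smad6) without dox+E2 replicate 2 and 2 (Ctgf and Tgfbr3) without dox+E2 replicate 3. Inhba lost its call also without dox replicate 1, and without dox replicate 2, without E2 replicate 1 and without E2 replicate 3. Id1 lost its call also without dox replicate 2 and without E2 replicate 2. With arrays scaled to their median signal in place of the quantile step, the median of all genes moved to 0.09 and Ctgf stood at -0.09 (adjusted p = 0.364), Tgfbr3 at -0.24 (0.0599), Id1 at -0.23 (0.0705) and Inhba at -0.14 (0.203), while Smad6 passed at 0.46. Without a trend of variance with intensity, 0 genes passed.

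Considered separately, dox+E2 against dox gave 0 of 39 genes past the threshold, where 0.232% of all genes passed, and the lowest adjusted p was 0.0722 for Id1. E2 against vehicle gave 0 of 39, where 1.45% of all genes passed, and the lowest was 0.0635 for Ctgf. At an unadjusted p under 0.05 the counts were 9 of 39 (10.8% of all genes) and 10 of 39 (15.6%). The arrays compared did not overlap for 19 of 39 genes (39.7% of all genes) and 14 of 39 (34.3%). Ctgf had -0.32 ± 0.08 and -0.26 ± 0.07, Smad6 0.36 ± 0.13 and 0.37 ± 0.12, and Tgfbr3 -0.28 ± 0.11 and -0.37 ± 0.10 in these comparisons in that order.

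**Figure D4:**
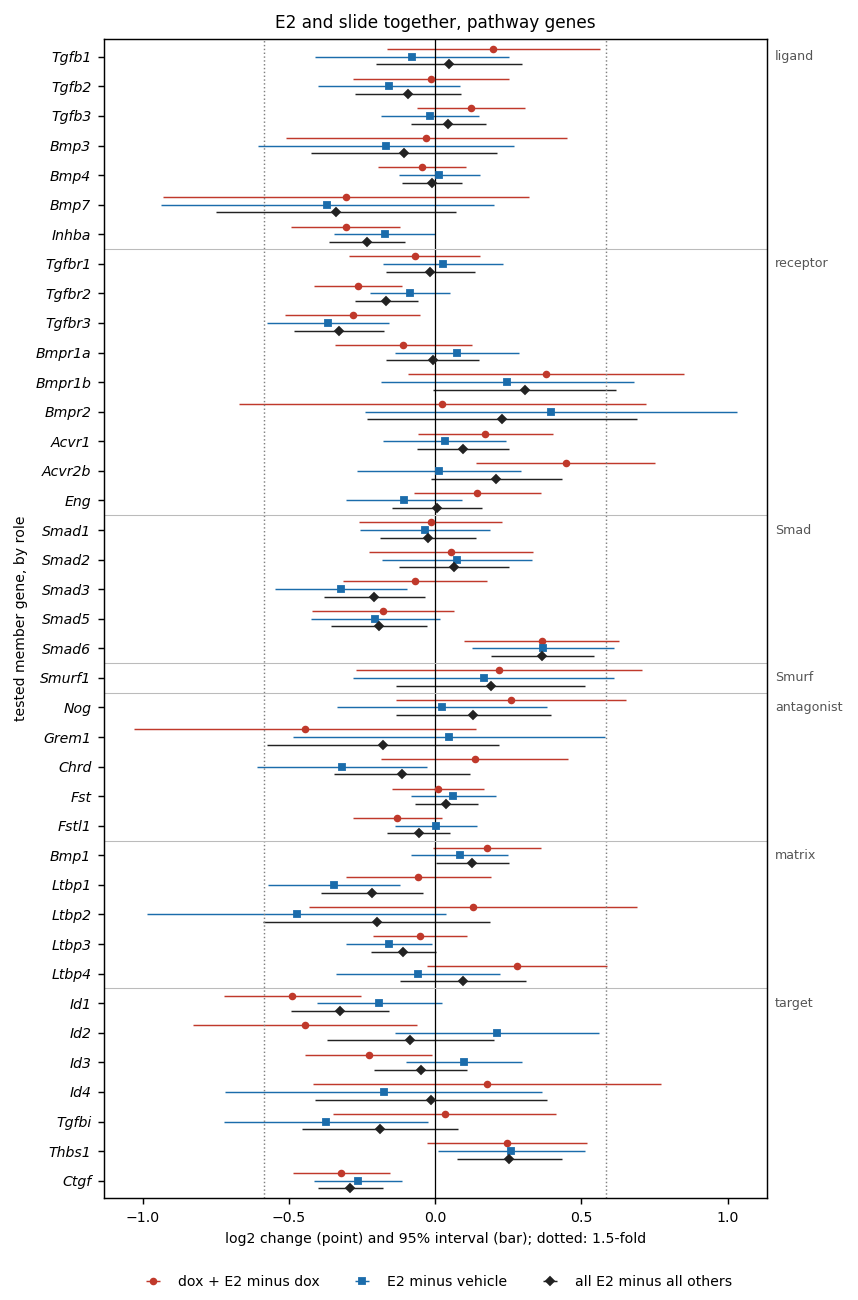
Log2 change for the 39 tested genes by role, as dox+E2 minus dox, E2 minus vehicle, and both combined, with 95% intervals. Each estimate holds E2 and slide together. Ctgf, Tgfbr3, Id1 and Inhba lie below 0 and Smad6 above 0 in the combined comparison.

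Other genes moved with the same split of arrays. Of 12 listed immediate early genes, which answer within minutes to stimulation or handling of cells, Ier2 and Atf3 were below background on every array. The genes of this list that passed the filter had a summed intensity of 17596 to 18906 in dox+E2 and 16358 to 17533 in E2. The sum was 19869 to 36302 in dox and 34303 to 35599 in vehicle. Of the 7 heart and slow muscle markers with a probe, none was above background on all 9 arrays. Those that passed the filter, Myl2, Actc1, Myl3 and Myh6, summed to 82.6 to 115 in dox+E2 and 148 to 381 in E2. The same markers summed to 1292 to 2073 in dox and 1352 to 1572 in vehicle. Their part in the values of the pathway genes was not tested. Fos was at 7.12 to 7.33 in the E2 groups and at 7.52 on dox replicate 2.

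Among the further pathway genes, 5 of 71 passed in the combined comparison, where 2.94% of all genes did. All 5 fell, beside 171 of the 279 genes called in all. They were Junb (-0.90) and Ccn1 (-0.57), genes that TGF-beta and serum are known to induce, Col1a1 (-0.16), Gdf15 (-0.36 ± 0.09, adjusted p = 0.0342, limma), a distant ligand of the family, and Neo1 (-0.20 ± 0.05, adjusted p = 0.0415), a receptor that also takes part in BMP signalling. For E2 against vehicle alone, Junb (-1.08 ± 0.15) and Ccn1 (-0.77 ± 0.10) passed, 2 of 71 beside 1.45% of all genes. For dox+E2 against dox 0 of the 71 passed.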

How the data were processed

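Total RNA of 9 samples (Trizol, RNeasy columns, DNase I) was turned into biotinylated cRNA with the MessageAmp kit, per the labels' protocols. Per the file headers, each array has 1 column of bead signal (linear intensity) and 1 of detection p-values. The submitters' processing notes name GenomeStudio 2011.1. The deposited signals were not scaled between arrays. A second deposited table of intensity values agreed within 0.515% with a quantile normalization of these signals and served as an alternative. The genome build was not given in the sources used here. Slides were read from the number that arrays share in the sample descriptions and column headers, which is taken here to name the slide. Symbols of the table were matched to RefSeq genes of GRCm38.p6: 20736 probes had a current symbol, 3841 a synonym and 1120 kept theirs.

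The neqc function (limma 3.58.1, R 4.3.3) subtracted background estimated from the detection p-values, added an offset of 16, applied quantile normalization and took log2. The offset shrinks changes of dim probes. A probe was kept if 2 or more arrays had a detection p under 0.05 (12912 probes), and the brightest probe stood for a gene. A linear model with 4 group means was fitted to 9492 genes over all 9 arrays, with moderated errors that follow intensity and Benjamini-Hochberg adjustment over all genes. Comparisons over all arrays came from a fit with a dox term and a slide term. The comparisons were dox with E2, dox without E2, dox over all arrays, the difference between these dox effects, and E2 with slide, with dox, without dox and over all arrays. The script was tested on simulated data. Depth per array is given with the results as probes above background.

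The pathway genes, the other lists and the markers were chosen with earlier results of these data known. Values on every array were given for genes past the threshold and for the 6 with the smallest p in each dox comparison. Alternatives changed the filter, the offset, the background method, the scaling, the probe rule, the variance trend, the arrays fitted and the replicate block, and left out each array. Same-numbered arrays had correlations of their deviations from -0.113 to 0.0253. Figures were drawn with Python 3.11.15 and matplotlib 3.10.9.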

Additional observations from a re-analysis of the deposited data

How the results depend on the processing

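In the dox comparisons with E2, without E2 and over all arrays 0 of the tested pathway genes passed under each of 19 alternatives, and in the difference between the dox effects 0 passed under each of 18. The lowest adjusted p of a pathway gene under these alternatives ran from 0.570 to 0.997 with E2, from 0.257 to 1.00 without E2, from 0.370 to 0.999 over all arrays and from 0.436 to 0.999 for the difference (limma).

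Counts of pathway genes past the threshold moved in the comparisons of E2 with slide. With dox (0 as reported) the count was 3 under median scaling and 0 to 1 when arrays were left out in turn. Without dox (0 as reported) it was 1 with the replicate block, 2 when only the groups compared were fitted and 0 to 2 when arrays were left out. Over all arrays (5 as reported) it was 3 under median scaling, 1 under the replicate block, 0 with no trend of variance on intensity, and 1 to 5 when arrays were left out. Under median scaling the 3 genes were Bmp1, Smad6 and Thbs1. The median of all genes then moved to 0.09 over all arrays and to 0.12 with dox. Tgfbr2 reversed to 0.0715 over all arrays when the mean of its probes was used. The causes of these moves were not tested, apart from the probes of Tgfbr2 given above.

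Single genes were followed through the alternatives only where they had been picked for the smallest p in a comparison. Of the alternative values of these picked genes, 740 kept their direction and side of the threshold, 12 passed it, 33 no longer passed and 1 reversed. The counts do not show how often the other tested pathway genes changed direction. The correlations of deviations gave no sign of pairing by replicate number, a weak check because deviations in a group of 2 mirror each other. With the replicate block 0 pathway genes passed in each dox comparison, as without it. Among all genes the dox calls fell from 7 to 5 with E2 and from 11 to 7 over all arrays, and stayed at 3 without E2. Genes near background, Id4, Bmpr2, Grem1, Ltbp2 and Bmp7, have wide intervals, and a group of 2 arrays limits all comparisons.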
